A study of Homo sapiens with 6 samples.

Results

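The 10 genes described here encode mitotic kinesins: KIF4A, KIF11, KIF14, KIF15, KIF18A, KIF20A, KIF20B, KIF22, KIF23 and KIF2C. They were taken by symbol from the 58233 rows with an Ensembl gene identifier in each of 6 expression tables, and each symbol matched 1 row. All 10 reached the minimum for testing, a mean of 1 across libraries, as did 13346 genes in all. The 10 genes were chosen by function and on their Q63E and VEC values from an earlier look at these libraries, in which KIF4A differed and most of the others did not. Their values in that comparison are therefore given as a description, with no p-value.

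RNA was sequenced from T24, an established human cell line of transitional cell carcinoma of the bladder. In 3 libraries (VEC) the cells carried the vector, and in 3 libraries (Q63E) a constitutively active mutant of the small GTPase RhoC; cells of both groups were transduced by lentivirus, selected with puromycin and express their construct stably. The labels do not say whether the lines were clones or pools, which promoter drove the construct, or whether the 3 libraries of a group came from separate cultures, so p-values measure the spread between these libraries only. RHOC itself, which checks the labels, went from 227 ± 8.27 (SD, n = 3) in VEC to 1746 ± 22.3 (SD, n = 3) in Q63E.

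Kinesins are motor proteins that use ATP to move along microtubules or to take their ends apart. Mitotic kinesins build the bipolar spindle, move and align chromosomes, and organise the central spindle where the cleavage furrow forms. The centralspindlin complex, which contains KIF23, works at the central spindle. Transcripts of many mitotic kinesins are made mainly in G2 and mitosis, through promoters known for CCAAT boxes and for a short element named CHR (cell cycle genes homology region).

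To show what the promoters share, the 100 bases before the RefSeq start (build GRCh38.p14) of 8 members follow, 5′ to 3′ on the gene's own strand. Capitals mark matches to CCAAT, which reads ATTGG when it lies on the opposite strand. They also mark the CHR-type hexamer TTTGAA, which reads TTCAAA when it lies on the opposite strand. A second hexamer of this type, TTCGAA, reads the same on both strands. KIF4A is printed beside members with both kinds of match, with 1 kind and with neither. KIF14 and KIF20B, whose hexamers lie after the start and outside these 100 bases, are not printed.
KIF4A (chrX:70290004-70290103, plus strand): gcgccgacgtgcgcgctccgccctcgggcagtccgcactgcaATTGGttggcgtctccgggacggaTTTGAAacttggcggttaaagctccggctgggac
KIF11 (chr10:92593030-92593129, plus strand): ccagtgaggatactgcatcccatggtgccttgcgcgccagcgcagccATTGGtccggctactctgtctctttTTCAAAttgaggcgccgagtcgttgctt
KIF23 (chr15:69414249-69414348, plus strand): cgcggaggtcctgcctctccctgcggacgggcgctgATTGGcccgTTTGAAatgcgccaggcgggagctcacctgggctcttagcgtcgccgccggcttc
KIF22 (chr16:29790651-29790750, plus strand): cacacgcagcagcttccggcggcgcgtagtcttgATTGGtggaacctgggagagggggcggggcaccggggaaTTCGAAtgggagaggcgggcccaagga
KIF18A (chr11:28108157-28108256, minus strand): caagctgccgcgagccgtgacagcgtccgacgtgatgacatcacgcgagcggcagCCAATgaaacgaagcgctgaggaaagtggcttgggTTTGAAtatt
KIF15 (chr3:44761694-44761793, plus strand): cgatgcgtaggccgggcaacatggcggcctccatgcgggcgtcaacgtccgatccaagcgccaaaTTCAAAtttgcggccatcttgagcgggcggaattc
KIF20A (chr5:138179012-138179111, plus strand): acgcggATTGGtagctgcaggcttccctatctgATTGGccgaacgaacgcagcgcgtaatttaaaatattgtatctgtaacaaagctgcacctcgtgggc
KIF2C (chr1:44739737-44739836, plus strand): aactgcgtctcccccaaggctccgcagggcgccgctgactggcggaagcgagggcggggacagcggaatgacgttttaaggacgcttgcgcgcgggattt

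Windows from 250 bases before to 50 bases after the RefSeq start were searched on both strands; the motifs do not overlap one another in the printed stretches. A CHR-type hexamer was found for 8 of 10 members, all but KIF20A and KIF2C, and in 16.4% of the 35116 windows of the RefSeq table. TTTGAA accounted for 7 of these members (15.2% of all windows) and TTCGAA, in KIF22, for 1 (1.45%). CCAAT was found for 8 of 10 members, all but KIF15 and KIF2C, and in 34.6% of all windows. Both kinds were present for 7 of 10 members and in 6.38% of all windows. In KIF4A the CCAAT match began at position -58 and the hexamer at -34, with 19 bases between them. The spacing was 20 bases in KIF11, 18 in KIF14, where the hexamer starts at position 2 after the start, 30 in KIF18A, 34 in KIF22 and 4 in KIF23. KIF20B had its hexamers after the start, at positions 25 and 31, and its nearer CCAAT match at -98. For KIF22 RefSeq gives a second start, and the window around it held the same TTCGAA match at -244. A match describes letters in a window and does not show that a factor binds there.

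The deposited values are taken as FPKM, fragments scaled to transcript length and to the fragments of the library, so levels can be set beside each other between genes. In VEC the highest member was KIF11, at 81.5 ± 1.66 (SD, n = 3), above 90.1% of the tested genes. KIF2C (71.4 ± 3.004), KIF22 (68.7 ± 4.74) and KIF4A (67.3 ± 0.675) came next, and the ranges of neighbours in this order overlapped. KIF20A (50.8 ± 3.17) and KIF23 (49.4 ± 3.48) overlapped each other, and KIF20B stood apart below them at 42.5 ± 0.419. The lowest were KIF15 at 17.4 ± 1.67, KIF18A at 14.6 ± 0.638 and KIF14 at 13.1 ± 0.631, whose ranges did not overlap with their neighbours in the order. In Q63E the order of the other 9 was kept, and KIF4A moved from place 4 to place 7.

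**Figure D1:**
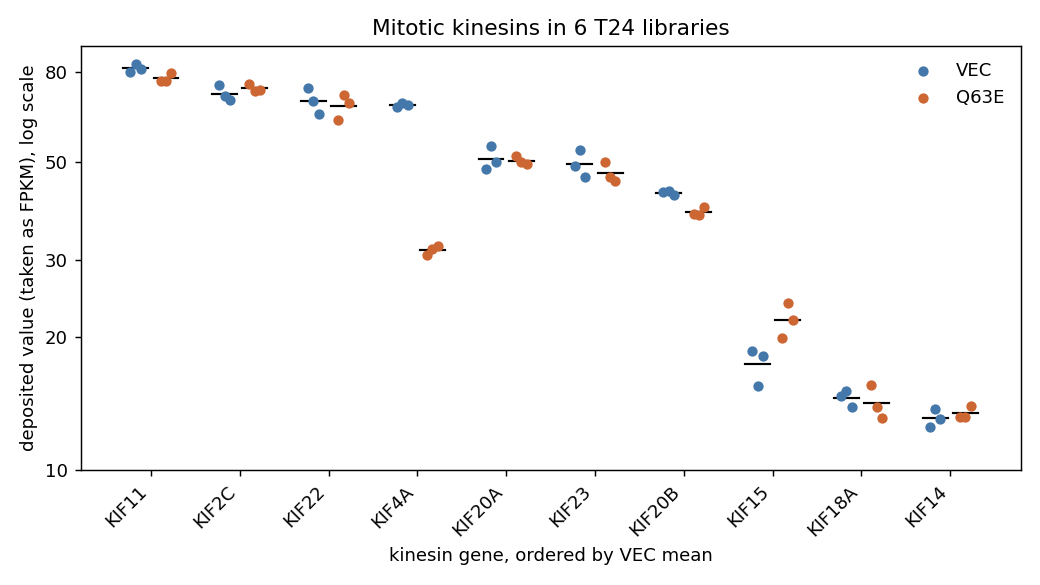
Deposited value (taken as FPKM, log axis) of each mitotic kinesin in the 3 VEC and 3 Q63E libraries, with points for libraries and black bars for group means. KIF4A is at 66.6 to 67.9 in VEC and 30.8 to 32.3 in Q63E, while the other genes differ less between the 2 groups. Of these, KIF15 lies higher in Q63E (group means 17.4 and 21.9) and KIF11 and KIF20B slightly lower, without overlap of the groups.

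The mean of KIF4A in Q63E was 0.469 times that in VEC, and the mean of KIF20B 0.906 times. In limma over all genes, with a threshold of 0.05 on the adjusted p, these 2 of 10 members counted as lower and 0 as higher; of all genes tested, 14% were lower and 11.3% higher (25.3% in either direction). Because the comparison was in view when the genes were chosen, nothing is read from this share. The groups did not overlap for 4 members, lower in Q63E for KIF4A, KIF11 and KIF20B and higher for KIF15; this held for 43.9% of all genes tested (22.8% lower, 21.1% higher). The median difference over the 10 members was -0.04 on the log2(value + 1) scale, against -0.002 for all genes tested, and 9 of 10 lay between -0.14 and 0.31.

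Among the chromokinesins, which bind chromosome arms, KIF4A and KIF22 differed in their values. KIF4A (ENSG00000090889, chromosome X from 70290090 to 70420832 on the plus strand of GRCh38) also binds PRC1 and limits the length of central spindle microtubules. Its values were 66.6, 67.9 and 67.4 in VEC and 30.8, 31.7 and 32.3 in Q63E. All 3 Q63E libraries were thus at less than 0.5 times the level of any VEC library, and the replicates of either group lay within a narrow band (coefficient of variation 1.003% and 2.33%). The difference was -1.07 (SE 0.038) on the log2 scale. Its rank was 286 from the lowest among 13346 genes tested, and 19 among the 1394 genes whose VEC mean was within 1.5-fold of that of KIF4A. Genes that were called lower with means at least 2-fold lower made up 2.19% of those tested.

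KIF22 (ENSG00000079616, chromosome 16), which helps to push chromosomes away from the poles, had values of 73.5, 68.6 and 64.0 in VEC and 62.2, 70.7 and 67.8 in Q63E. The groups overlapped, with a difference of -0.04 (SE 0.069). KIF4A was thus at the level of KIF22 in VEC and well below it in every Q63E library.

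KIF11 and KIF15 slide antiparallel microtubules apart and keep the spindle bipolar. KIF11 (ENSG00000138160, chromosome 10) was at 79.99, 83.3 and 81.2 in VEC and at 76.2, 76.0 and 79.7 in Q63E. The Q63E values were all below the VEC values, by a small margin, and the difference was -0.08 (SE 0.037). KIF15 (ENSG00000163808, chromosome 3) was at 18.6, 15.5 and 18.2 in VEC and at 19.9, 23.9 and 21.8 in Q63E. All Q63E libraries were higher, but the replicates were the most spread of the members in VEC (coefficient of variation 9.60%), and the difference was 0.31 (SE 0.095). KIF15 shares 3802 bases on the same strand with TMEM42 (named for this overlap; 6.70 in VEC and 11.4 in Q63E, group means), so reads there may be shared between both rows.

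KIF18A and KIF2C act on microtubule ends: KIF18A dampens the movements of aligned chromosomes, and KIF2C takes microtubules apart at kinetochores. KIF18A (ENSG00000121621, chromosome 11) was at 14.7, 15.1 and 13.9 in VEC and at 15.6, 13.9 and 13.1 in Q63E. KIF2C (ENSG00000142945, chromosome 1) was at 74.7, 70.5 and 68.9 in VEC and at 75.2, 72.5 and 72.8 in Q63E. For both genes the groups overlapped, and the differences of -0.04 (SE 0.078) and 0.04 (SE 0.043) lay within the spread of the libraries.

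The remaining members work at the central spindle and in cytokinesis. KIF20A (ENSG00000112984, chromosome 5) brings the chromosomal passenger complex to the midzone, and its values were 48.2, 54.3 and 50.01 in VEC and 51.6, 49.96 and 49.3 in Q63E. KIF23 (ENSG00000137807, chromosome 15), the motor of centralspindlin, was at 48.9, 53.2 and 46.3 in VEC and at 50.1, 46.3 and 45.1 in Q63E. KIF14 (ENSG00000118193, chromosome 1), which binds PRC1 and citron kinase, was at 12.5, 13.8 and 13.1 in VEC and at 13.2, 13.2 and 13.98 in Q63E. The groups overlapped for these 3 genes, with differences of -0.01 (SE 0.054), -0.07 (SE 0.066) and 0.03 (SE 0.062). KIF20B (ENSG00000138182, chromosome 10), which acts late in cytokinesis, was at 42.6, 42.8 and 42.0 in VEC and at 38.1, 37.9 and 39.5 in Q63E. Its groups did not overlap, with a difference of -0.14 (SE 0.039). KIF20B no longer counted as lower when any 1 of the 6 libraries was left out, with differences of -0.13 to -0.16.

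Summed over the 10 members, the values were 465 to 485 in VEC and 433 to 436 in Q63E. KIF4A made up 14.1% ± 0.332 of this sum in VEC (SD, n = 3) and 7.27% ± 0.146 in Q63E (SD, n = 3). Without KIF4A the sums were 398 to 417 in VEC and 402 to 404 in Q63E, and the ranges of the groups overlapped. Set against KIF11 in the same library, KIF4A was at 0.816 to 0.833 in VEC and at 0.404 to 0.417 in Q63E. The gap between the groups in the summed values was the KIF4A row for the most part. The genes were chosen with these values in view, so this is a description only.

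The reads of KIF4A could be split with KIF4B, a near-identical intronless copy on chromosome 5. In their longest coding transcripts in GENCODE release 29, 14.4% of the 50-base windows of KIF4A occurred in a transcript of another gene, and 14.1% in that of KIF4B. Over the other 9 members this share was at most 0.416%. The KIF4B row held between 0.03 and 0.16 in each library, with a mean of 0.0867 in both groups. The likeness extends to the 5′ end, which is why the 100 bases before the RefSeq start of KIF4B (GRCh38.p14) are shown, with capitals as above.
KIF4B (chr5:155013655-155013754, plus strand): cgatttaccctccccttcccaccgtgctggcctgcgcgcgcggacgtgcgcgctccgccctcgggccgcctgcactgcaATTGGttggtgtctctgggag
Counted from position -37 of KIF4A and from position 1 of KIF4B, 50 bases in a row were equal in the windows. They include the TTTGAA hexamer, which lies at position 4 in KIF4B. The run reaches the end of the KIF4B window, so its full length was not determined. Over the whole aligned stretch 163 of 263 bases were equal, and from position -135 of KIF4A on, a limit set after the alignment was seen, 136 of 148 (91.9%).

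KIF4A begins head to head with PDZD11, and the 2 genes overlap by 425 bases on opposite strands. PDZD11, named for this position, was at 71.4, 71.0 and 68.0 in VEC and at 68.8, 73.6 and 73.2 in Q63E. The groups overlapped (log2 difference 0.03, SE 0.043, adjusted p = 0.597 in limma), unlike those of KIF4A on the other side of the shared start region. The files do not state a strand, so reads in the overlap may belong to either gene.

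In several stretches of chromosomes neighbouring genes differed in the same direction, so each member is also given beside the tested protein-coding genes that start within 5 Mb of it. Around KIF4A 20 of 28 neighbours were above 0 and 8 below, with a median difference of 0.15. In limma 8 of them passed as higher and 1 as lower. On the whole X chromosome 60 of 390 tested protein-coding genes were higher and 42 lower. Of all genes tested 11.3% were higher and 14% lower, and 6619 of 13346 were above 0. The 28 neighbours ran from -0.52 to 0.59, so KIF4A lay below each of them. Within 2 Mb the median was 0.12 over 18 genes, and within 10 Mb 0.08 over 43. With the neighbours' median subtracted in every library, the KIF4A difference was -1.21 (SE 0.041), larger than without.

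**Figure D2:**
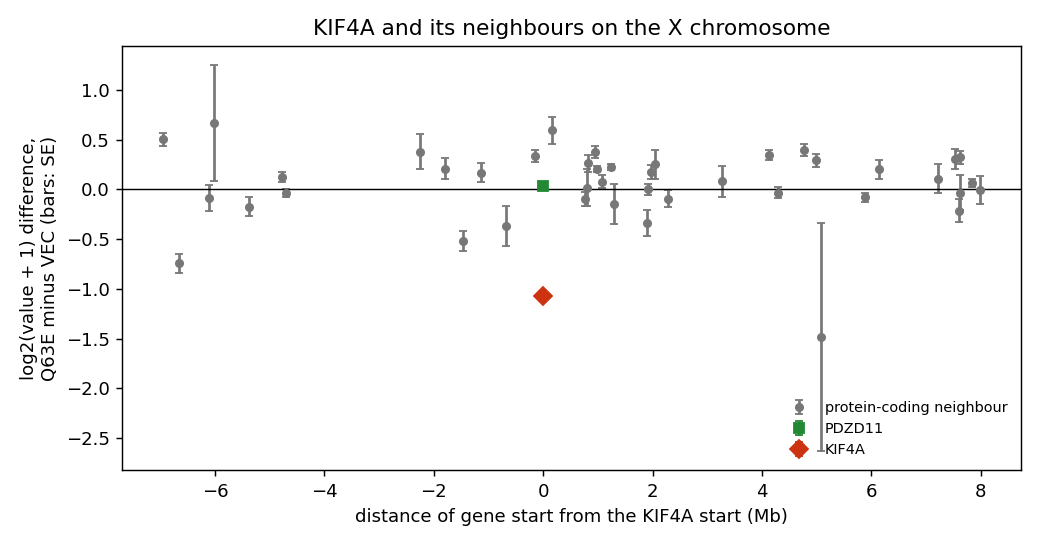
Log2(value + 1) difference, Q63E minus VEC, of KIF4A and of the 43 tested protein-coding genes that start within 10 Mb of it, against distance in Mb; bars are SE of the limma fit. KIF4A is at -1.07 and its head-to-head partner PDZD11 at 0.03, with 1 neighbour of wide error lower than KIF4A.

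KIF15 showed the opposite relation to its surroundings. Its stretch of chromosome 3 had 86 of 92 neighbours above 0 with a median of 0.36, and its own difference of 0.31 was 0.05 below that median. After subtraction in every library it was -0.04 (SE 0.095). Of the 10 members 6 lay within 0.1 of their neighbours' median and 9 within 0.2, KIF4A being the exception at -1.22. The members were chosen with their differences in view, and the share of all genes within these limits was not computed. Nothing is therefore read from these counts. For KIF20B the neighbours had a median of 0.02, and its difference was -0.15 (SE 0.044) after subtraction.

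**Figure D3:**
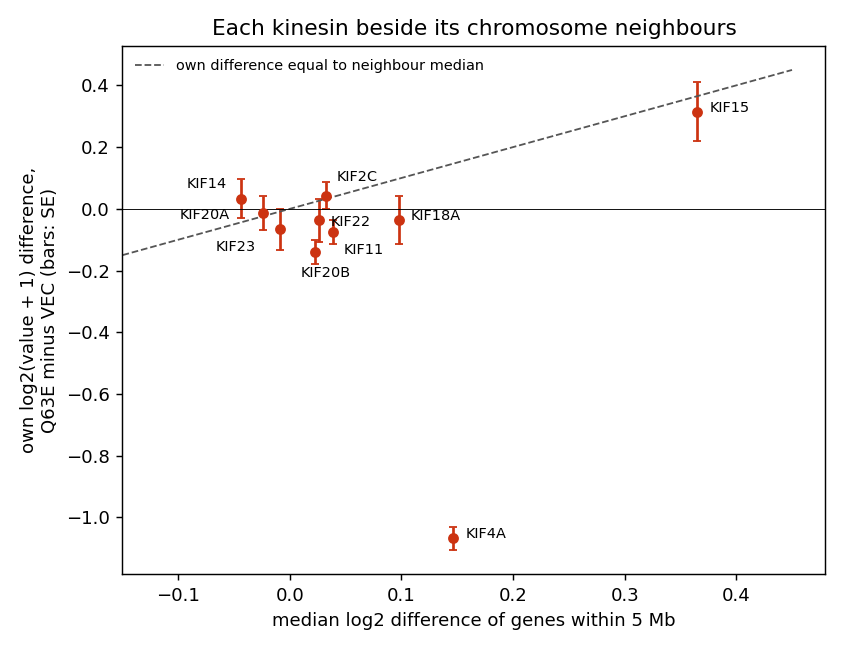
Own log2(value + 1) difference of each of the 10 kinesins (bars: SE) against the median difference of the tested protein-coding genes within 5 Mb, with a dashed line where both are equal. KIF15 sits at 0.31 beside a median of 0.36, and KIF4A at -1.07 beside a median of 0.15.

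Beyond the 10 members, 34 other kinesin genes were listed by symbol, and 23 of them were tested. Of these 3 rose and 3 fell in limma, or 6 of 23 beside 25.3% of all genes tested, with a median difference of 0.04. Of 6 other mitotic kinesins 4 were tested. CENPE, the kinetochore motor that carries chromosomes to the equator, fell from 20.8 ± 1.76 to 14.8 ± 0.788 (SD of 3 libraries here and below; log2 difference -0.46, SE 0.076, adjusted p = 0.00673 in limma). It was named after its values were seen. It lies in a lowered part of chromosome 4 (27 of 29 neighbours below 0, median -0.40), and with the neighbours' median subtracted it did not pass (-0.10, adjusted p = 0.468). KIFC1, a minus-end motor that focuses spindle poles, and KIF2A, a microtubule depolymerase, did not pass, with differences of 0.09 (SE 0.042) and 0.04 (SE 0.054).

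Of 28 kinesins not listed as mitotic here 19 were tested, with 3 higher and 2 lower, beside 11.3% and 14% of all genes tested. KIF5B, the main conventional kinesin of cargo transport, fell from 52.4 ± 1.13 to 32.6 ± 0.750 (log2 difference -0.67, SE 0.041, adjusted p = 0.000201 in limma). Each of its 20 neighbours on chromosome 10 was below 0 too (median -0.45), and after subtraction its difference was -0.17 (adjusted p = 0.0387). KIFC2 rose from 20.9 ± 1.17 to 30.2 ± 2.79 (0.51, SE 0.080, adjusted p = 0.00559) while 57 of its 75 neighbours were below 0. KIF21B, a low gene, fell from 1.47 ± 0.230 to 0.570 ± 0.0872 (adjusted p = 0.0320), and KIF3B, a motor subunit of cilia, rose from 16.6 ± 0.734 to 19.1 ± 0.451 (adjusted p = 0.0459). KIF1C, named after its values were seen, rose from 55.2 ± 1.87 to 62.5 ± 2.39 (adjusted p = 0.0357). The calls of KIF21B, KIF3B and KIF1C held in 7 of 11, 5 of 14 and 6 of 14 settings; the count of 6 was 3 without VEC replicate 1, Q63E replicate 2 or Q63E replicate 3, and 4 without any 1 of the others. On the log2(value + 1) scale KIF4A had the lowest difference of the 33 kinesins tested. On the ratio of means KIF21B was lower (0.389 against 0.469), and with a pseudocount of 0.1 it lay at -1.22 and KIF4A at -1.09.

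**Figure D4:**
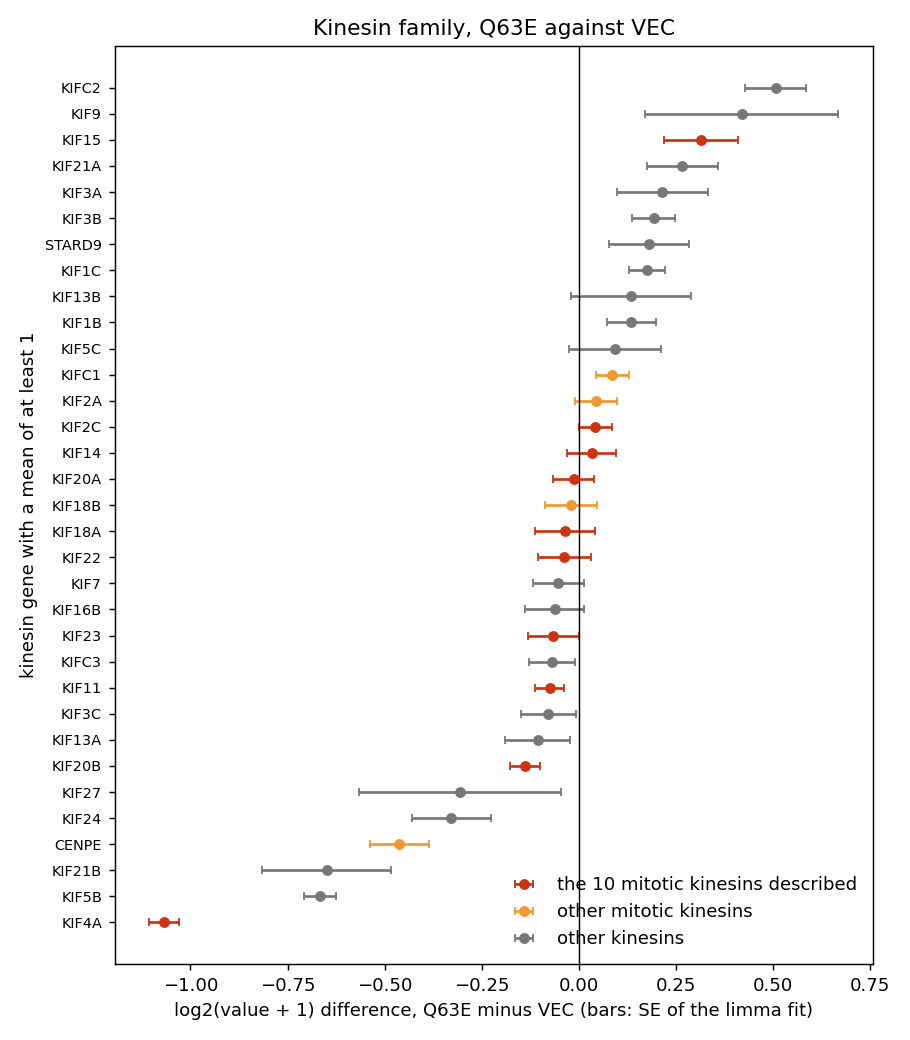
Log2(value + 1) difference, Q63E minus VEC, with SE of the limma fit, of the 33 kinesin genes tested, in order. On this scale KIF4A is lowest at -1.07, although with a pseudocount of 0.1 KIF21B lies lower (-1.22 against -1.09), and the other 9 mitotic kinesins described lie between -0.14 and 0.31.

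The partners of these motors were listed by role. Of all genes tested 11.3% were higher and 14% lower, and the count of each list stands beside these shares. Nothing is read from the count of a single list. Of 12 genes of the central spindle and cytokinesis 3 rose and 1 fell (median -0.01). CEP55, which recruits the abscission machinery, rose from 126 ± 1.80 to 148 ± 3.88 (adjusted p = 0.00478 in limma), and AURKB, the kinase of the chromosomal passenger complex, from 114 ± 3.06 to 132 ± 5.21 (adjusted p = 0.0156). AURKB did not pass without Q63E replicate 1 (adjusted p = 0.0518) or 3 (0.0521), nor after subtraction of its neighbours' median (0.10, adjusted p = 0.213). RHOA rose from 259 ± 7.80 to 314 ± 2.77 (adjusted p = 0.00206), with a difference of 0.28 that was -0.09 after subtraction of its neighbours' median. PLK1, a mitotic kinase, fell from 114 ± 4.92 to 97.6 ± 3.66 (adjusted p = 0.0160). The direct partners PRC1, RACGAP1 and CIT, named after their values were seen, did not pass in limma (adjusted p = 0.783, 0.133 and 0.637). PRC1, which KIF4A binds, was at 230, 237 and 213 in VEC and at 215, 242 and 209 in Q63E. RACGAP1, the other part of centralspindlin, had means of 91.6 ± 1.65 and 84.2 ± 5.19, and CIT, the citron kinase that KIF14 binds, 24.2 ± 4.27 and 25.6 ± 1.53.

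Of 16 spindle assembly partners 1 rose and 4 fell (median 0.05), beside 11.3% and 14% of all genes tested. GTSE1, an inhibitor of KIF2C, fell from 94.1 ± 6.28 to 60.4 ± 4.03 (adjusted p = 0.00140 in limma), TACC3 from 102 ± 3.24 to 70.2 ± 3.36 (adjusted p = 0.0007) and AURKA, a spindle pole kinase, from 154 ± 1.11 to 115.5 ± 7.65 (adjusted p = 0.00226). MAPRE1, a microtubule end-binding protein named after its values were seen, fell from 129 ± 3.998 to 113 ± 4.87 (adjusted p = 0.0231), and NUMA1 rose from 70.3 ± 2.79 to 92.5 ± 4.18 (adjusted p = 0.00245). After subtraction of the neighbours' medians GTSE1 (-0.26, adjusted p = 0.0641) and TACC3 (-0.04, adjusted p = 0.603) did not pass; MAPRE1 passed in 8 of 14 settings. TPX2, which binds KIF11 and targets KIF15 to the spindle and was named after its values were seen, had a difference of -0.03 (SE 0.036).

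Condensins and TOP2A shape mitotic chromosomes, and KIF4A acts beside them on chromosome arms. Of these 9 genes 0 rose and 1 fell in limma (median 0.001), beside 11.3% and 14% of all genes tested. NCAPG, a condensin subunit named after its values were seen, fell from 39.4 ± 0.600 to 29.55 ± 1.11 (adjusted p = 0.00156); its difference of -0.40 was 0.08 after subtraction of its neighbours' median. SMC4 and TOP2A, the 2 with the highest means, had differences of 0.04 (SE 0.071) and -0.01 (SE 0.059).

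Of 23 regulators of cell cycle transcription 1 rose and 5 fell (median -0.06). The largest were falls of CDKN1A, the inhibitor p21, from 20.8 ± 2.95 to 13.0 ± 1.66 (adjusted p = 0.0134 in limma), of TFDP1 from 122 ± 10.4 to 92.3 ± 4.71 (adjusted p = 0.00920) and of its partner E2F1 from 51.7 ± 0.166 to 39.1 ± 1.11 (adjusted p = 0.00101). RBL2, a pocket protein that represses cell cycle genes in resting cells, rose from 15.02 ± 0.745 to 19.5 ± 0.325 (adjusted p = 0.00569). Of 8 proliferation genes 0 rose and 2 fell (median -0.10). CCNA2 fell from 58.3 ± 1.52 to 40.4 ± 1.31 (adjusted p = 0.000550 in limma). After subtraction of its neighbours' median it was at -0.08 (adjusted p = 0.19). PCNA fell from 235 ± 8.47 to 175 ± 6.22 (adjusted p = 0.00110 in limma). The other 6 did not pass. Named after their values were seen, they were CDK1 (-0.15), CCNE1 (-0.14), MKI67 (-0.06), CCNB1 (-0.06), CCND1 (0.04) and CCNB2 (0.10). Over the 5 lists 5 of 68 genes rose and 13 fell, or 18 of 68 beside 25.3% of all genes tested (11.3% higher and 14% lower). KIF4A, at -1.07, was below the lowest of the 68, which was at -0.63. Whether the share of cells in mitosis differed was not tested, and a lower share of dividing cells and less RNA per cell cannot be told apart in bulk libraries.

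**Figure D5:**
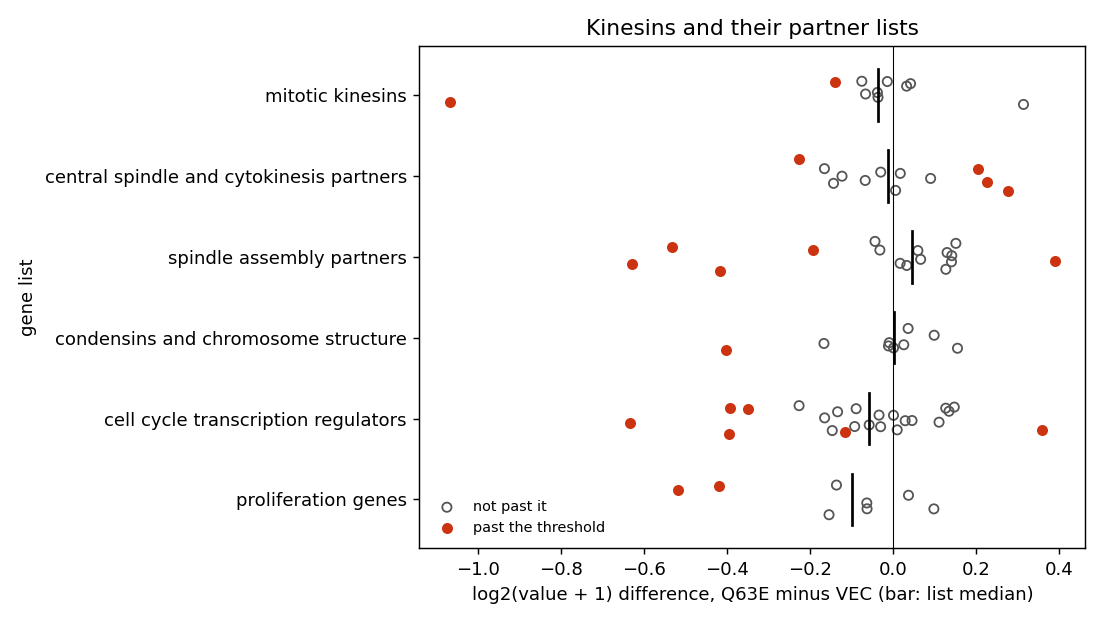
Log2(value + 1) difference, Q63E minus VEC, of each tested gene in the mitotic kinesins and 5 lists of partners, with filled points for genes past the threshold and black bars for list medians. All list medians lie between -0.10 and 0.05, and KIF4A at -1.07 is the lowest point.

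The tested protein-coding genes whose profile over the 6 libraries was nearest to that of KIF4A were TTC26, EEF1A2, XXYLT1, NT5E and PMAIP1. Likeness was the Euclidean distance between log2(value + 1) profiles centred on each gene's own mean, and ran from 0.145 to 0.157 for these 5. TTC26 went from 15.2 ± 0.257 to 6.52 ± 0.440 and EEF1A2 from 104 ± 1.19 to 51.2 ± 2.77. XXYLT1 went from 5.94 ± 0.558 to 2.31 ± 0.130, NT5E from 44.8 ± 2.41 to 22.4 ± 0.287 and PMAIP1 from 102 ± 5.94 to 49.8 ± 3.18. They lie on chromosomes 7, 20, 3, 6 and 18, and 0 of the 5 are kinesins or in the partner lists. This distance depends mainly on the group difference. The lowest of the other kinesins was at -0.67 and the lowest partner at -0.63, so their absence follows from the measure.

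The libraries had total values of 726929 to 769026, and their log2 values correlated across genes at r = 0.968 to 0.976 within groups and 0.953 to 0.958 between them. Depth is unknown, since the tables hold no counts. The epithelial keratins KRT7, KRT8 and KRT18 of the labelled cell type were at 515 to 1031 in VEC and at 788 to 1454 in Q63E (group means). VIM, the mesenchymal filament listed with them because the line expresses it, went from 3212 to 2193. The sum of these 4, KRT19 and EPCAM was 5317 to 5378 in VEC and 5551 to 5631 in Q63E, and it joins these opposite moves. KRT19 was low in VEC, at a mean of 5.67, and at 161 in Q63E, the largest change on this list. EPCAM was near the floor, at 0.313 in VEC and 1.52 in Q63E. In limma 4 keratins rose and VIM fell, EPCAM being below the minimum; their part in the kinesin values was not tested. Of 6 leukocyte markers all were below 1 in every library and 3, PTPRC among them, were listed at 0; the 4 endothelial markers were also below 1, as were 4 of 5 fibroblast markers.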

How the data were processed

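Per the labels, total RNA of T24 cells was made into libraries with an Illumina TruSeq kit. HISAT2 2.1.0, Bowtie2 and build GRCh38.p10 appear in the submitters' processing notes without a role or order. How reads were counted, with which annotation, strand and filters, is not given in the sources used here. Each library has its own deposited table with a value per gene. The deposited unit is taken to be FPKM because values are not whole and totals differ. No header names the unit, so the scaling to transcript length is assumed. Of 58882 rows, 649 without a gene (0.274% to 0.511% of a library's summed value) were left out.

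The 13346 genes whose mean reached 1 were tested as log2(value + 1) with limma 3.58.1 (trend, two-sided) in R 4.3.3 on group alone, Benjamini-Hochberg adjusted, threshold 0.05. Differences are Q63E minus VEC on that scale and understate the change of low genes. The limma fit with these settings was tested on simulated data, and the other steps were not. Coordinates are from GENCODE release 29 on GRCh38 and promoters from RefSeq (GRCh38.p14; 10 of 10 members matched); protein sequences were not used here. Subtraction of neighbours centred each gene on the median of tested protein-coding genes starting within 5 Mb, where there were at least 5.

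Members and lists were chosen with earlier results of these data known. Beside the members, RHOC, KIF4B and the 5 nearest profiles, up to 4 genes past the threshold with the largest difference were named per list, or the 2 with the highest mean where fewer than 2 passed; others are marked as named after their values were seen. Alternatives were another pseudocount, no filter, 2 scalings, the replicate number as a block, limma without trend, subtraction of neighbours, windows of 2 and 10 Mb, and each library left out.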

Additional observations from a re-analysis of the deposited data

How the results depend on the processing

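The KIF4A difference, a description, lay between -1.03 (quantile normalization) and -1.21 (neighbour median subtracted). The count of members past the threshold was 2 and became 1 with the replicate number as a block, with limma without trend, with the neighbour median subtracted and without any 1 library (1 to 1). With quantile normalization the 2 were KIF4A, lower, and KIF15, higher (0.34). Other kinesins past the threshold were 3 with the replicate block and 3 with the neighbour median subtracted, in place of 6, and 3 to 4 with a library left out. All genes past the threshold were 2208 with the replicate block, in place of 3383; PLK1 and CDKN1A were among those named that did not pass with it (adjusted p = 0.0686 and 0.0565 in limma). Deviations of same-numbered libraries correlated at -0.04, -0.01 and -0.02, so no shared shift by number was seen. This cannot show whether the libraries were prepared in pairs, which the labels do not say. The block also removes degrees of freedom. The median of the KIF4A neighbours was 0.0808 within 10 Mb, against 0.15 within 5 Mb. With the neighbour median subtracted RHOA was at -0.0879 and NCAPG at 0.0803, both on the other side of 0. Subtraction for counts over lists and over all genes was chosen after seeing the data. Depth is unknown, so no limit from counting can be given.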

Other observations

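Of the 44 kinesin genes listed, 11 had a mean below 1 and were not tested. KIF1A, KIF2B and KIF26A were listed at 0 in all 6 libraries, and KIF4B, KIF5A, KIF6, KIF19 and KIF25 had group means of at most 0.160. KIF12 had means of 0.427 in VEC and 1.24 in Q63E, KIF17 of 0.467 and 0.913 and KIF26B of 0.283 and 0.0433, the former resting on 1 library (0.05, 0.09 and 0.71); these 3 were named after their values were seen, and their differences were not tested.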
